A study of Mus musculus with 6 samples.

Results

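The IL-6 family was examined through 8 genes of the 54532 listed, chosen by symbol: the ligands Il6, Lif, Osm and Il11, and the receptor chains Il6ra, Il6st, Lifr and Osmr. RNA came from mouse bone marrow-derived macrophages (BMDMs) of C57BL/6 mice, grown together with ID8, an established line of mouse ovarian cancer cells. Before co-culture the ID8 cells had received either cisplatin at 40 µM (3 libraries), a DNA-crosslinking chemotherapy drug, or the vehicle PBS, phosphate-buffered saline (3 libraries). All 6 cultures thus held ID8 cells, and BMDMs without them were not analysed here. The BMDMs are called monocytes in the study's methods, and how they were parted from the ID8 cells is not given in the sources used here. Replicates are called biological there, without saying whether each was a culture or an animal of its own.

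Cytokines of this family signal through gp130, the shared chain encoded by Il6st. IL-6 binds the IL-6 receptor (Il6ra) and then gp130, IL-11 uses its own receptor in the same way, LIF pairs gp130 with the LIF receptor (Lifr), and mouse oncostatin M pairs it mainly with the oncostatin M receptor (Osmr). JAK kinases then activate STAT3. Activated macrophages are known sources of IL-6 and oncostatin M, whereas LIF and the LIF and oncostatin M receptors are typical of stromal and epithelial cells.

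Libraries held between 15776238 and 17924686 reads, as recovered from the deposited FPKM, a level that divides a gene's fragments by its length and by the depth of the library. Libraries of one group correlated with Pearson's r from 0.984 to 0.989 across tested genes, and libraries of different groups with r from 0.871 to 0.877. The labelled cell type was checked first. All 12 macrophage markers were detected and passed the filter on low values, Mertk through the cisplatin libraries alone. Each was higher with cisplatin (limma, adjusted p under 0.05), as were 32.9% of all tested genes. Their summed level was 4588 to 4765 FPKM against 1837 to 1860 FPKM with PBS, most of it from Lyz2 (mean 3459 against 1161 FPKM). Of 13 ID8 and mesothelial markers 9 were tested, and all 9 were lower with cisplatin at the same adjusted p, as were 35.1% of all tested genes. Their summed level was 242 to 262 FPKM against 1308 to 1411 FPKM. A log2 difference of 1 or more was also reached by 5 of the 12 macrophage markers (4.67% of all tested genes). The same held for 8 of the 9 ID8 and mesothelial markers (11.3%). Markers of both kinds were thus present in both groups, in different proportion. In such bulk RNA, fewer cells of a type and less RNA per cell cannot be told apart. Of the same 13 markers, Krt7, Lrrn4, Igfbp5 and Muc16 were below the filter, and Muc16 had 2, 2 and 0 reads in the cisplatin libraries and 34, 55 and 50 in the PBS libraries (limma voom, log2 fold change -4.90, adjusted p = 3.30e-05).

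A gene was tested where its FPKM reached 1 in at least 3 libraries, which 7 of the 8 family genes and 13441 of all genes did. Upregulated and downregulated refer below to a Benjamini-Hochberg adjusted p under 0.05 over all tested genes together with a log2 difference of 1 or more on log2(FPKM + 1), cisplatin against PBS. By this rule Lif, Il6st, Lifr and Osmr were downregulated, 4 of the 7, where 11.3% of all tested genes were downregulated and 15.9% changed in either direction. No family gene was upregulated by the same limma fit, where 4.67% of all tested genes were, but Osm, Il6ra and Il6 were higher both at an adjusted and at an unadjusted p under 0.05, and limma voom on the recovered reads called Osm and Il6ra (of 22419 genes, voom called 9.78% higher and 22% in either direction). At the adjusted p alone all 7 differed, 3 higher and 4 lower, against 68% of tested genes, 32.9% higher and 35.1% lower. The groups did not overlap in any of the 7, as in 72.4% of tested genes. Lifr passed the filter through the PBS libraries, since just 1 cisplatin library reached an FPKM of 1.

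**Figure D1:**
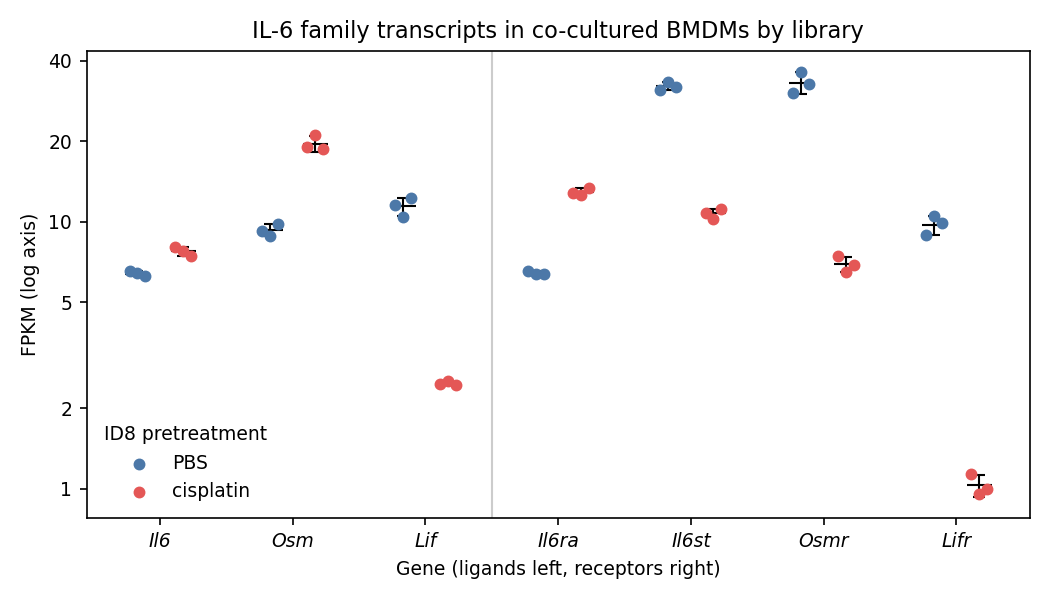
FPKM (log axis) of the 7 tested IL-6 family genes in each library, ligands on the left and receptors on the right, with points for libraries and black bars for the mean ± SD (n = 3 each). Il6, Osm and Il6ra sit higher in all 3 cisplatin libraries, and Lif, Il6st, Osmr and Lifr sit lower, down to an FPKM of 0.955 for Lifr. When libraries are scaled by their Y-linked genes, Il6 reverses, and Osm and Il6ra no longer differ at the adjusted p.

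Among the ligands, Osm changed in the opposite direction to Lif, although both lie on the plus strand of chromosome 11 with 16530 bases and no listed gene between them. Osm (ENSMUSG00000058755, chromosome 11, 4236420 to 4241026), which encodes oncostatin M, was at 19.0, 21.0 and 18.7 FPKM in cisplatin replicates 1 to 3 and at 9.23, 8.84 and 9.82 FPKM in the PBS replicates. Every cisplatin library lay above every PBS library, and the means differed 2.11-fold (19.6 ± 1.27 against 9.30 ± 0.49 FPKM, SD, n = 3 each). On the log2(FPKM + 1) scale the fold change was 0.998 (SE 0.061, limma, adjusted p = 9.93e-06), just short of the threshold, and by limma voom it was 1.16 (SE 0.086, adjusted p = 8.90e-12). Scaling the libraries by 4 Y-linked genes (absent from ID8, a line from a female mouse), which shifted the median gene from -0.0011 to -0.83, took Osm to 0.070 (limma, adjusted p = 0.487). Of the 13441 tested genes, 652 had a larger fold change in the upward direction.

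Lif (ENSMUSG00000034394, chromosome 11, 4257557 to 4272514) encodes leukaemia inhibitory factor, a cytokine known for holding mouse embryonic stem cells undifferentiated. It was at 2.46, 2.52 and 2.45 FPKM with cisplatin and at 11.5, 10.4 and 12.2 FPKM with PBS. The cisplatin libraries were nearly alike and far below the PBS libraries, a 4.61-fold difference of means (2.48 ± 0.038 against 11.4 ± 0.90 FPKM, SD, n = 3 each). The log2 fold change was -1.83 (SE 0.066, limma, adjusted p = 8.08e-07). Between 176 and 182 reads lay behind the cisplatin values and between 708 and 887 behind the PBS values.

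Il6 (ENSMUSG00000025746, chromosome 5, 30013114 to 30019981), the founding member of the family and an inflammatory cytokine, changed far less. Its values were 8.04, 7.80 and 7.43 FPKM with cisplatin and 6.52, 6.40 and 6.24 FPKM with PBS. The groups were close but did not overlap (7.76 ± 0.31 against 6.39 ± 0.14 FPKM, SD, n = 3 each). The log2 fold change of 0.25 (SE 0.049, limma, adjusted p = 0.00374) was short of the threshold, and scaling by the Y-linked genes reversed it to -0.63. A larger upward fold change than that of Il6 was found for 4326 of the 13441 tested genes.

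Il11 (ENSMUSG00000004371, chromosome 7, 4772373 to 4782857), which encodes a cytokine of stromal and epithelial cells, was barely seen. A single read was recovered in each cisplatin library and in PBS replicate 2, and none in the other PBS libraries. Summed over libraries these are 3 reads (95% exact Poisson interval 0.619 to 8.77) against 1 (0.025 to 5.57), so no difference was detectable at this depth. The intervals cover counting error only.

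The start regions of Il6 and Lif are shown because the ligands moved differently. They are the 250 bases before the RefSeq start on GRCm38.p6, on the plus strand, chr5:30012864-30013113 for Il6 and chr11:4257318-4257567 for Lif.
Il6: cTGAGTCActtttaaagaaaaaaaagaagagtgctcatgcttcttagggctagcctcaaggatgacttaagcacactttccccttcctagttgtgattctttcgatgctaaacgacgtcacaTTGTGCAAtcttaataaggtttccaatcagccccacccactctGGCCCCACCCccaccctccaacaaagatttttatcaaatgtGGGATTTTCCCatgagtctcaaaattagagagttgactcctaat
Lif: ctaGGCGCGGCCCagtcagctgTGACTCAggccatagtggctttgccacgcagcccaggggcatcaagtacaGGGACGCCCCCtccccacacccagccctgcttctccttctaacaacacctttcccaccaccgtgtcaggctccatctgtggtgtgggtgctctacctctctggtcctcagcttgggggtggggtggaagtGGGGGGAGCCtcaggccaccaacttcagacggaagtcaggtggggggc
Capitals mark letters that match NF-κB (GGG, any 5 bases, CC), TGANTCA (AP-1), TTGCNNAA (C/EBP), TTCNNNGAA (STAT) or TGACGTCA (CRE) on either strand, and matches can overlap. Both hold an AP-1 match, at -249 to -243 in Il6 and at -228 to -222 in Lif, as do 6.75% of 32851 start regions of the same length. The Il6 region also holds a C/EBP match at -128 to -121, found in 9.56% of regions, and 3 NF-κB matches, at -85 to -76 and, overlapping on opposite strands, between -44 and -34. The Lif region holds 4 NF-κB matches. Such NF-κB letters are common, being present in 45.8% of regions. No STAT match (7.02% of regions) and no CRE match (1.55%) was found in either. These matches describe letters and were not tested against the changes. Start regions were found for 7 of the 8 genes, Osm being the one without.

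Of the receptor chains, 3 were downregulated and Il6ra went the other way. Il6st (ENSMUSG00000021756, chromosome 13, 112464070 to 112510086), which encodes gp130, was at 10.8, 10.3 and 11.2 FPKM with cisplatin and at 31.2, 33.5 and 31.9 FPKM with PBS. The PBS libraries were all far higher (2.998-fold in mean), and replicates differed little (10.7 ± 0.46 against 32.2 ± 1.18 FPKM, SD, n = 3 each). The log2 fold change was -1.50 (SE 0.048, limma, adjusted p = 4.80e-07), lower than that of all but 776 tested genes.

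Osmr (ENSMUSG00000022146, chromosome 15, 6813577 to 6874969) encodes the chain that binds oncostatin M together with gp130. Its level was 7.42, 6.49 and 6.90 FPKM with cisplatin and 30.3, 36.4 and 32.8 FPKM with PBS. The PBS replicates were more spread than those of Il6st but all far above the cisplatin libraries, a 4.78-fold difference of means (6.94 ± 0.47 against 33.1 ± 3.08 FPKM, SD, n = 3 each). The log2 fold change was -2.10 (SE 0.077, limma, adjusted p = 8.75e-07).

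Lifr (ENSMUSG00000054263, chromosome 15, 7090614 to 7197489), the LIF receptor gene, lies on the opposite strand to Osmr, 215644 bases from it with no protein-coding gene between. It was at 1.13, 0.955 and 0.995 FPKM with cisplatin and at 8.89, 10.5 and 9.87 FPKM with PBS. The family's largest fall was thus to near the limit of the filter, 9.48-fold lower in mean (1.03 ± 0.094 against 9.75 ± 0.80 FPKM, SD, n = 3 each). The log2 fold change was -2.40 (SE 0.078, limma, adjusted p = 5.11e-07), and 213 of the 13441 tested genes had a lower one. By limma voom, which adds no pseudocount of 1 FPKM, it was -3.15 (SE 0.107, adjusted p = 9.39e-19).

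Il6ra (ENSMUSG00000027947, chromosome 3, 89864059 to 89913196) encodes the chain that binds IL-6 itself, found mostly on leukocytes and hepatocytes. Values of 12.8, 12.6 and 13.4 FPKM with cisplatin stood against 6.53, 6.37 and 6.35 FPKM with PBS. Replicates agreed closely in both groups, and the means differed 2.01-fold (12.9 ± 0.41 against 6.42 ± 0.095 FPKM, SD, n = 3 each). The log2 fold change of 0.91 (SE 0.044, limma, adjusted p = 3.28e-06) was short of the threshold, and limma voom gave 1.10 (SE 0.058, adjusted p = 1.00e-14), but scaling by the Y-linked genes took it to 0.0098 (limma, adjusted p = 0.890). Il6ra overlaps the antisense gene Gm42809, whose highest FPKM was 0.413, and no strand setting is given for the counting. No other family gene overlaps a listed gene.

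**Figure D2:**
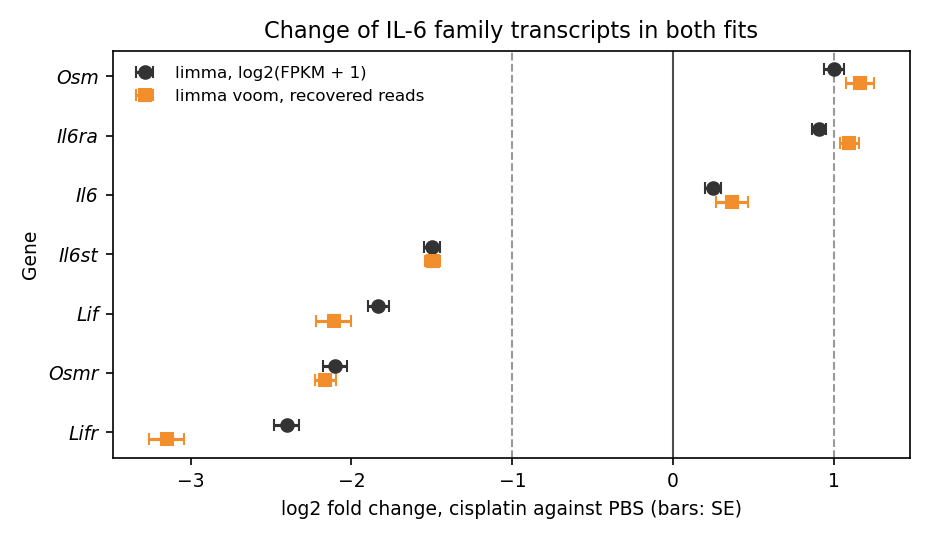
Log2 fold change (cisplatin against PBS) of the 7 tested genes by limma on log2(FPKM + 1) (black circles) and by limma voom on recovered reads (orange squares), bars giving the SE and dashed lines a fold change of 2 in either direction. Lif, Il6st, Osmr and Lifr lie beyond the dashed line in both fits, Osm and Il6ra just under it in the first (0.998 and 0.91) and beyond it in the second, and Il6 lies inside in both. Scaling by Y-linked genes, not shown, reverses Il6 and takes Osm to 0.070 and Il6ra to 0.0098, both short of the adjusted p.

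The start regions of Il6st and Il6ra are shown because these chains, which together bind IL-6, moved in opposite directions. They are again the 250 bases before the RefSeq start on GRCm38.p6, for Il6st the plus strand of chr13:112463820-112464069 and for Il6ra the minus strand of chr3:89913197-89913446.
Il6st: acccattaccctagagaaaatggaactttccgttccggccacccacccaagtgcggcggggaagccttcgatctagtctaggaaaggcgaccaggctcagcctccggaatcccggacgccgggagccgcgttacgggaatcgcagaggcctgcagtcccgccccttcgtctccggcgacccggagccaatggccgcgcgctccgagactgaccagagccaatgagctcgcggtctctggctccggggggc
Il6ra: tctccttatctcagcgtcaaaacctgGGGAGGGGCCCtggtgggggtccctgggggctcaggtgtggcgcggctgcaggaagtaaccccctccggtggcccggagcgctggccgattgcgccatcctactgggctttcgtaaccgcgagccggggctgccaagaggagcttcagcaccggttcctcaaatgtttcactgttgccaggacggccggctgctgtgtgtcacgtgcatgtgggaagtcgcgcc
Capitals have the same meaning as for Il6 and Lif. Il6st holds none of the 5 motifs, and Il6ra holds 2 overlapping matches to the common NF-κB letters, between -224 and -214, and no other.

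Because FPKM is per length, levels can be ordered between genes. With PBS the order was Osmr and Il6st (30.3 to 36.4 and 31.2 to 33.5 FPKM, not separable from each other), then Lif, Lifr and Osm, each overlapping the next, and then Il6ra and Il6, which also overlapped. With cisplatin Osm was highest (18.7 to 21.0 FPKM), followed by Il6ra, Il6st, Il6, Osmr, Lif and Lifr, with no overlap between neighbours, although Il6 (lowest 7.43) and Osmr (highest 7.42) all but touched.

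Ratios within a library do not change when all its values are multiplied by the same factor. They can change with the mix of cells, whose markers also differed between the groups, and this was not tested. The ratio of Osm to Osmr was 2.56, 3.24 and 2.71 with cisplatin and 0.305, 0.243 and 0.2995 with PBS, so the ligand transcript was the more abundant in all cisplatin libraries and the less abundant in all PBS libraries. Il6ra to Il6st was 0.199 ± 0.0095 in PBS libraries and 1.20 ± 0.020 in cisplatin libraries (SD, n = 3 each). Lif and Lifr both fell, and their ratio moved less, from 1.18 ± 0.16 to 2.42 ± 0.24 (SD, n = 3 each). Osmr and Lifr fell further than Il6st did. Osmr to Il6st went from 1.03 ± 0.058 to 0.646 ± 0.038, and Lifr to Il6st from 0.302 ± 0.015 to 0.0958 ± 0.0085 (SD, n = 3 each). These ratios were chosen with the values known and are given without a test.

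**Figure D3:**
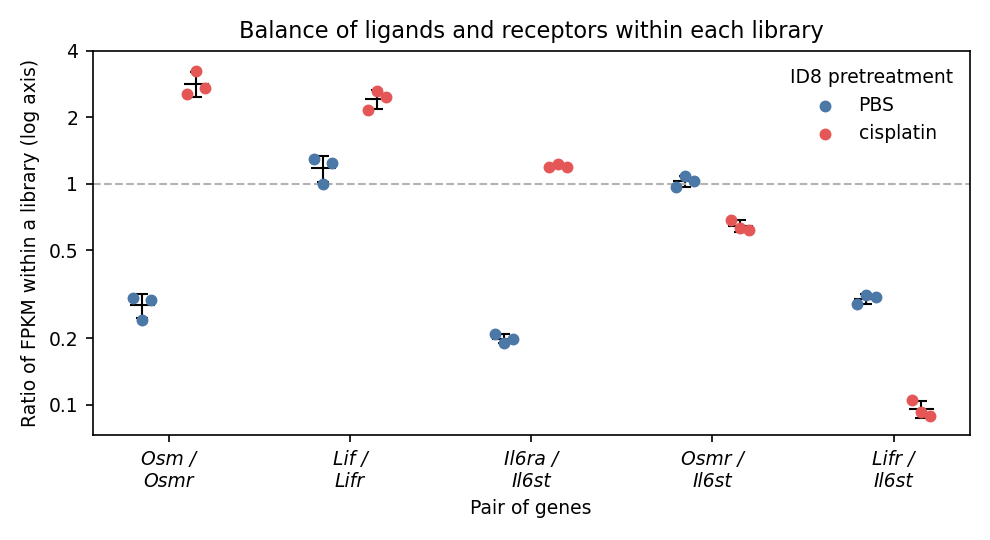
Ratio of FPKM between paired IL-6 family genes within each library (log axis), points for libraries and black bars for the mean ± SD (n = 3 each), the dashed line marking equal levels. Osm to Osmr and Il6ra to Il6st lie below 1 in all PBS libraries and above 1 in all cisplatin libraries, and Osmr and Lifr are lower relative to Il6st with cisplatin.

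The cell type markers that moved with the groups were set beside these changes. Adgre1, a mature macrophage marker, was at 190 ± 3.53 (cisplatin) and 103 ± 1.05 FPKM (PBS), and the epithelial keratin Krt19 at 51.1 ± 3.802 (cisplatin) and 588 ± 28.8 FPKM (PBS) (SD, n = 3 each). Relative to the geometric mean of the 12 macrophage markers, Osm was at 0.240 to 0.268 with cisplatin and 0.252 to 0.305 with PBS, which overlap, and Il6ra at 0.160 to 0.171 and 0.179 to 0.197, which do not. Il6 was at 0.0952 to 0.106 with cisplatin and 0.178 to 0.194 with PBS by the same measure. Relative to the 9 tested ID8 and mesothelial markers, Lif was at 0.125 to 0.131 with cisplatin and 0.119 to 0.131 with PBS, and Osmr at 0.337 to 0.390 and 0.333 to 0.414, both overlapping. Lifr was lower by this measure (0.0495 to 0.0596 against 0.0979 to 0.119), and Il6st was higher (0.532 to 0.568 against 0.342 to 0.381). By these measures the groups overlapped for Osm among the first and for Lif and Osmr among the second. Leaving out Mertk, an alternative chosen after seeing the data, made Il6ra overlap too (0.114 to 0.122 with cisplatin against 0.118 to 0.1196 with PBS), as Osm still did (0.1705 to 0.190 against 0.164 to 0.185), and left Il6 apart (0.0677 to 0.0745 against 0.118 to 0.119). Which genes overlapped depended on the markers. Relative to Adgre1 alone Osm was apart (0.0996 to 0.109 with cisplatin against 0.0850 to 0.0963 with PBS), and Il6ra too (0.0650 to 0.0712 against 0.0612 to 0.0633), both higher with cisplatin. Relative to Krt19 alone Lif (0.0467 to 0.0526 against 0.0189 to 0.0202) and Osmr (0.120 to 0.159 against 0.0501 to 0.0656) were higher with cisplatin and apart, whereas Lifr overlapped (0.0177 to 0.0243 against 0.0147 to 0.0189). The measures were chosen after the values were seen, and the part of cell composition in the changes was not tested.

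**Figure D4:**
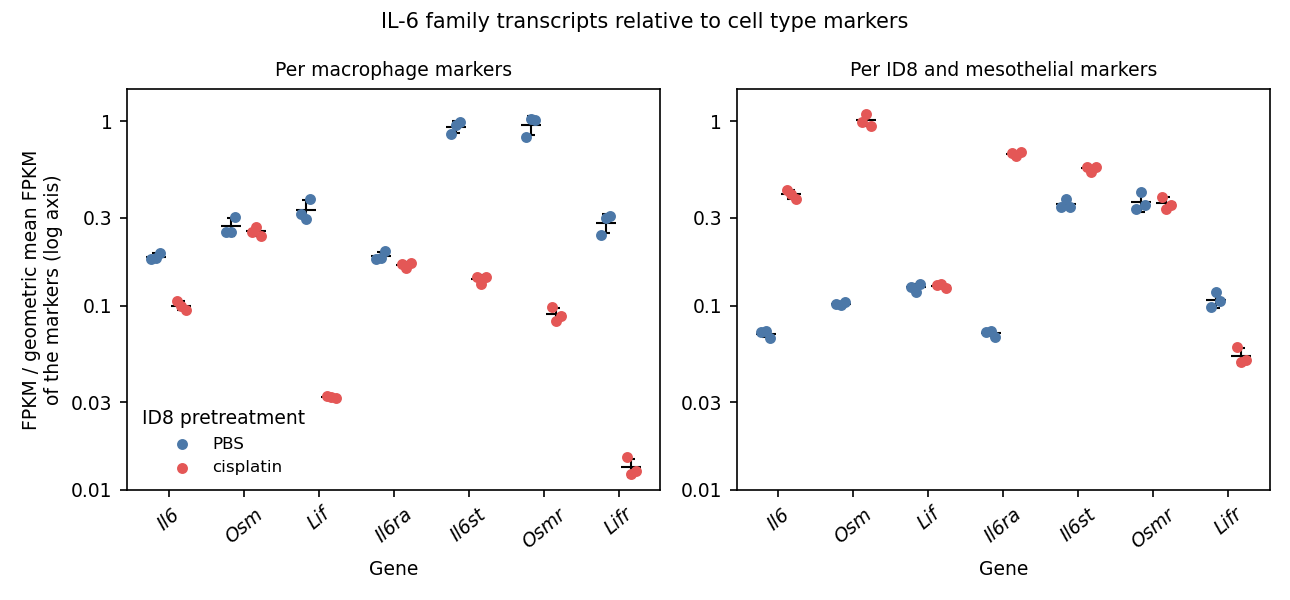
FPKM of each tested IL-6 family gene divided by the geometric mean FPKM of 12 macrophage markers (left) or of 9 ID8 and mesothelial markers (right) in each library, on log axes, points for libraries and black bars for the mean ± SD (n = 3 each). The groups overlap for Osm on the left and for Lif and Osmr on the right, and lie apart in every other case, but this depends on the markers: Il6ra also overlaps on the left without Mertk, and Osm per Adgre1 alone, and Lif and Osmr per Krt19 alone, lie apart.

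Other cells that could carry these transcripts also differed. The 4 mast cell and basophil markers were all upregulated (summed level 146 to 163 against 47.6 to 51.5 FPKM), as were 3 of 6 neutrophil and 3 of 4 tested lymphocyte markers, where 4.67% of all tested genes were. The neutrophil markers summed to 8764 to 8976 FPKM with cisplatin and 4802 to 4954 FPKM with PBS, above the macrophage sum in both groups. Of the 7 stromal cell markers 3 were tested, and they did not move together. Dcn was downregulated (16.2 ± 0.84 against 54.1 ± 2.62 FPKM with PBS) and makes up most of the summed level of the list (21.8 to 24.3 against 58.6 to 62.6 FPKM), Col1a1 was lower (log2 fold change -0.47, limma, adjusted p = 0.00361) and Thy1 higher (0.58, limma, adjusted p = 0.00386), all named after their values were seen. Pdgfra and Pdgfrb were below the filter. Pdgfra was at 0.203 ± 0.034 FPKM with cisplatin and 1.04 ± 0.081 FPKM with PBS (SD, n = 3 each), and limma voom called it lower (-2.26, adjusted p = 2.16e-09). Pdgfrb was at 1.004 ± 0.082 and 0.644 ± 0.046 FPKM (SD, n = 3 each), higher by limma voom without reaching the threshold (0.72, adjusted p = 0.00301). The Y-linked gene Ddx3y was at 19.2 ± 0.66 FPKM with cisplatin and at 8.10 ± 0.52 FPKM with PBS (SD, n = 3 each). Across these lists, each marker was detected somewhere, and their part in the family's changes was not tested.

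For each tested family gene the nearest profile among all tested genes was sought, as the smallest distance between log2(FPKM + 1) values of the 6 libraries centred on their mean. For Osm these were Nme1 (distance 0.0594) and Rbm38 (0.0915), and for Il6ra Sh2b2 (0.0473) and Ccdc86 (0.0659). Lif lay nearest Cbx6 (0.0853) and Ndufv3 (0.0913), and Il6st nearest Dtx3l (0.0595) and Oas2 (0.0597). Osmr was nearest Tlr3 (0.0907) and Nckap1 (0.0913), Lifr nearest Sema3c (0.116) and Tgm5 (0.126), and Il6 nearest Clint1 (0.0426) and Msl3 (0.0468). As the groups are far apart, such a distance mostly reflects the size of the group difference.

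The rest of the pathway was followed through 61 genes in 7 lists, of which 54 were tested. By limma 6 were downregulated, a share near the 11.3% of all tested genes, and 0 upregulated, where 4.67% of all tested genes were. At an unadjusted p under 0.05, 14 were higher and 32 lower, but the share of all tested genes at that p was not computed. Limma voom tested 58 and called 9 lower, where it called 12.2% of all genes lower, and 0 higher. At the adjusted p alone 32 of the 54 were lower and 13 higher, where 35.1% of all tested genes were lower and 32.9% higher. The median log2 fold change was -0.31, against -0.0011 for all tested genes.

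Of 8 further ligands of the family 4 were tested. Named after their values were seen, Ctf1 (log2 fold change -0.68, adjusted p = 0.00153), Il27 (-0.71, adjusted p = 0.00337) and Clcf1 (-0.52, adjusted p = 0.00176) were lower by limma without reaching the threshold. Ctf1 passed the filter through the PBS libraries alone, which favours a lower value with cisplatin. Limma voom called Ctf1 (-1.54, adjusted p = 0.000993) and Il27 (-1.04, adjusted p = 0.00909) lower. Ebi3, the partner of Il27, was at 39.3 ± 1.87 against 37.4 ± 1.49 FPKM (SD, n = 3 each, limma, adjusted p = 0.239). Of 5 further receptor genes 2 were tested. The IL-11 receptor gene Il11ra1 was lower (-0.84, adjusted p = 0.000264) and the IL-27 receptor gene Il27ra higher (0.46, adjusted p = 0.00146), both chosen in the same way.

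Among 10 genes that carry the signal onward, 9 were lower and 1 higher at the adjusted p (35.1% and 32.9% of all tested genes). Stat3, the main STAT of this family, was at 41.5 ± 0.67 FPKM with PBS and 26.3 ± 1.07 FPKM with cisplatin (SD, n = 3 each), a log2 fold change of -0.64 (limma, adjusted p = 1.17e-05), and Jak1, a main kinase of gp130, was also lower (-0.62, limma, adjusted p = 2.77e-05). Of 8 feedback inhibitors 4 were lower and 3 higher at the adjusted p (35.1% and 32.9% of all tested genes), and none reached the threshold in limma or in limma voom, with Socs2 passing the filter through the cisplatin libraries alone. Socs3, which STAT3 induces and which blocks gp130, was at 63.4 ± 3.20 FPKM with cisplatin and 122 ± 8.13 FPKM with PBS (SD, n = 3 each, log2 fold change -0.93, limma, adjusted p = 1.32e-05).

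Membrane-bound receptors of this family can be shed by ADAM proteases. Adam17 did not differ at the threshold (46.9 ± 0.73 against 49.5 ± 1.16 FPKM, SD, n = 3 each, limma, adjusted p = 0.0862). Of the 4 genes of shedding, 2 were lower and none higher at the adjusted p (35.1% and 32.9% of all tested genes). Rhbdf1, which encodes an inactive rhomboid that helps ADAM17 mature, was downregulated (log2 fold change -1.65, limma, adjusted p = 2.59e-06), as were 11.3% of all tested genes. Rhbdf2, outside the naming rule, was more abundant and did not differ at the threshold (32.3 ± 0.67 against 30.9 ± 0.57 FPKM, SD, n = 3 each, limma, adjusted p = 0.173).

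Of 18 genes that STAT3 is known to induce, 10 were lower and 4 higher at the adjusted p (35.1% and 32.9% of all tested genes). The median gene was at -0.22 (log2 fold change). With the threshold on the log2 difference, 4 were downregulated and 0 upregulated (11.3% and 4.67% of all tested genes). The downregulated ones were the acute-phase gene Saa3 (556 ± 91.1 to 61.2 ± 7.61 FPKM, log2 fold change -3.16, limma, adjusted p = 1.97e-06), the angiogenic factor gene Vegfa (105 ± 6.23 to 15.97 ± 0.77 FPKM, log2 fold change -2.65, limma, adjusted p = 1.05e-07), and, outside the naming rule, Il10 (-1.44) and Lcn2 (-1.09), SD with n = 3 each. Other factors induce these genes too. Of 8 known regulators of Il6 transcription and mRNA decay, 4 were higher and 3 lower at the adjusted p (32.9% and 35.1% of all tested genes), none past the threshold in limma or limma voom, with a median of 0.11 that reversed to -0.87 under scaling by Y-linked genes.

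**Figure D5:**
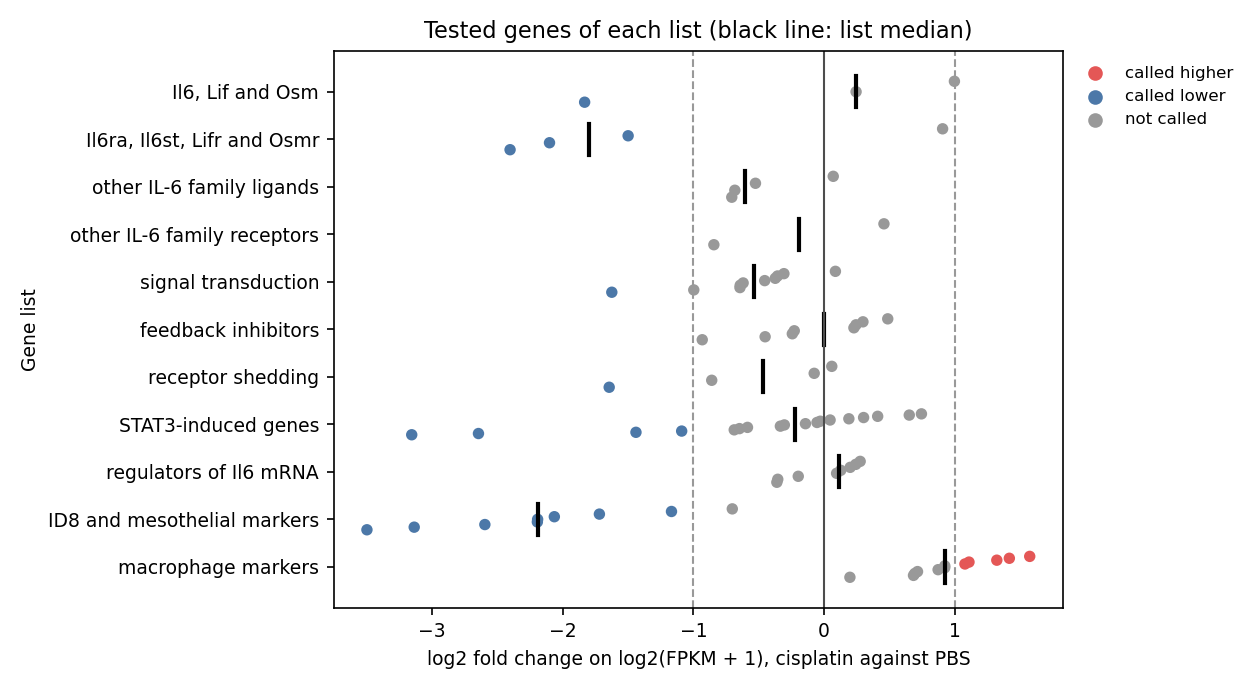
Log2 fold change on log2(FPKM + 1), cisplatin against PBS, of every tested gene in the family, pathway and marker lists, red and blue for genes called higher and lower, grey for others, black lines for list medians and dashed lines for a log2 fold change of -1 or 1. The ID8 and mesothelial markers (median -2.19) lie to the left, the macrophage markers (median 0.92) to the right, and the family's receptors on both sides.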

How the data were processed

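Poly-T selected RNA of 6 libraries was sequenced. The authors deposited FPKM per gene. The methods name LifeScope for alignment and counting, whereas the submitters' processing notes name fastp, HISAT2 2.0.5 and featureCounts 1.5.0-p3 on mm10. Coordinates are as listed, on GRCm38 (98.3% of the identifiers found in GENCODE M21 have the same coordinates there). FPKM times gene length came in whole multiples of one step per library (100% of values under 200 reads, within 0.02 of a read), which gave the recovered reads.

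log2(FPKM + 1) was fitted with limma 3.58.1 under R 4.3.3 (lmFit, eBayes with a trend, group as the only term). Groups and replicate numbers came from the labels, and p-values measure only the spread between these libraries. Alternatives were other pseudocounts, filters, scalings and tools, a replicate block and leaving out each library. The procedure was tested on simulated data. Pathway lists, markers, motifs and genes to be named (all family genes, Stat3, Socs3, Jak1, Adam17, Krt19, Adgre1, Pdgfra, Ddx3y, up to 2 called genes per list and direction with the largest change, and the 2 nearest profiles) followed a written rule, but family and lists were chosen with earlier results of these data known. Start regions are from RefSeq. One gene that the naming rule selects is not reported here.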

Additional observations from a re-analysis of the deposited data

How the results depend on the processing

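Lif, Il6st, Lifr and Osmr were downregulated in every alternative run, and their log2 fold changes ranged from -2.63 to -1.70, -2.44 to -1.41, -3.15 to -2.28 and -3.01 to -2.02 over the 18 that refit them. Against 0 family genes called higher, a pseudocount of 0.1, median-of-ratios scaling, TPM rescaling and quantile normalisation gave 1 (Osm, at 1.07, 1.01, 1.04 and 1.07), limma voom 2 (Osm at 1.16 and Il6ra at 1.10) and the adjusted p alone 3. Leaving out 1 library gave 0 to 1, with Osm from 0.95 to 1.03 and called without cisplatin replicate 1, cisplatin replicate 3 or PBS replicate 3. Scaling by the Y-linked genes left Osm (0.070) and Il6ra (0.0098) short of the adjusted p too, and reversed Il6 (-0.63) and the regulators of Il6 mRNA (-0.87). It took the median of all tested genes to -0.83. Limma voom, which tests more genes, reversed the median of the other IL-6 family receptors (0.74). The median of the 7 pathway lists was -0.32 with TPM rescaling, -0.25 with quantile normalisation, -1.19 with Y-linked scaling, -0.23 with limma voom, and from -0.33 to -0.27 without 1 library. Over all genes, 628 were called higher and 1514 lower. A pseudocount of 0.1 gave 973 higher, Y-linked scaling 85 and 5181, limma voom 2193 and 2742, limma treat 240 and 982, and the adjusted p alone 4424 and 4721. Quantile normalisation moved the median of all genes to 0.10. Equal replicate numbers are not stated to pair libraries, and deviations of same-numbered libraries correlated at -0.104, -0.0857 and -0.0235. With the replicate block, 4 family genes were lower and 0 higher, no call on a family gene changed, and the adjusted p of Il6 was 0.0145 (limma). Where no reason is given here, the cause was not tested.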
